A study of Mus musculus with 16 samples.

Results

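DNA replication in mammalian cells is carried out by a conserved set of proteins, and 45 genes that encode them were described here in embryonic stem cells (ESCs) of the mouse, which are pluripotent. They were taken as a fixed list of licensing, replication fork and nucleotide supply genes, matched by symbol, out of 36047 genes with summed counts. All 45 were among the 18965 genes that passed a filter on low counts and were tested. The list holds the 6 subunits of the origin recognition complex, 3 genes of helicase loading, the 6 subunits of the MCM helicase, 6 genes of helicase activation, the sliding clamp and its 5-subunit loader, 9 subunits of primase and polymerases, the 3 subunits of the single-strand binding protein, 2 enzymes of Okazaki fragment maturation and 4 enzymes of nucleotide supply. Poly(A) RNA was sequenced from ESCs that were wild type (WT) or knockout (KO) for Dgcr8, whose product partners the nuclease Drosha in cutting primary microRNA transcripts. Each genotype was either kept in normal culture or given an mTOR inhibitor, which blocks a kinase that ties growth to nutrient supply, with day 2 given for the treatment. Cells treated in this way are called paused below, after the dormancy-like state that mTOR inhibition induces. The 4 groups, WT normal, WT paused, KO normal and KO paused, held 4 libraries each. Not given in the labels are the part of Dgcr8 that was deleted, whether the KO line was 1 clone and whether replicates were separate cultures, so each p-value reflects the spread of these samples alone, and that spread may be technical.

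Replication starts at origins that are bound by the origin recognition complex, ORC. In G1 phase Cdc6 and Cdt1 help ORC to load the ring-shaped MCM helicase, while geminin holds Cdt1 back after S phase has begun. The helicase is then activated by Cdc45 and the GINS complex, and polymerases, the clamp PCNA, the single-strand binding protein RPA and a supply of deoxynucleotides sustain the fork. Many of these genes are transcribed in a wave at the G1/S transition under E2F factors, and ESCs are known for a short G1 phase and a large share of cells in S phase.

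Libraries held 88377380 to 116646028 estimated counts. Values are given as CPM, a gene's counts relative to the size of its library after TMM scaling, and the 45 genes had between 1436 and 99320 counts per library. In WT normal, WT paused and KO normal cells the replicates fell into the pairs 1 with 2 and 3 with 4. For WT normal cells the chi-square of a gene had medians of 7.53 to 10.6 between libraries of different pairs and 1.88 to 2.15 within pairs. In KO paused cells replicates 1 and 3 stood apart from 2 and 4. Results that rest on the division of replicates 1 and 2 from 3 and 4 are given below for each of these pairs separately. In KO paused cells these pairs cut across the division, so values from the pairs do not check it there. In the other groups a fit to 1 pair leaves out the spread between the pairs. P-values of such fits can therefore be smaller than with all libraries, and each describes its own libraries alone. The summed level of 8 ESC markers was 5600 to 6177 CPM over all 16 libraries, and that of fibroblast markers, 4 of 8 tested, was 17.1 to 20.95 CPM in WT and 23.6 to 38.2 CPM in KO libraries. In KO cells the fibroblast sum went from 34.4 to 38.2 CPM in normal culture to 23.6 to 25.4 CPM when paused. The sum of trophoblast markers, 6 of 6 tested, was lower in paused than in normal WT cells, at 28.9 to 35.6 against 58.4 to 61.4 CPM. In KO cells this sum was higher when paused, at 42.1 to 48.9 against 23.0 to 27.02 CPM. The trophoblast sum thus moved with pausing in both genotypes, in opposite directions. The fibroblast sum moved with pausing in KO cells. Its WT groups overlapped, at 17.5 to 20.95 CPM in normal culture and 17.1 to 17.9 CPM when paused. Single markers did not all follow the sums. On pausing, 1 trophoblast marker was called higher and 4 lower in WT cells, and 2 higher and 3 lower in KO cells. Of the 4 fibroblast markers tested, 1 was higher and 3 lower in KO than in WT cells in normal culture. On pausing, 1 fibroblast marker was called higher and 3 lower in WT cells, and 1 higher and 2 lower in KO cells. The difference in response between genotypes was called for 0 of the 4. The sums in WT and KO libraries were, for primitive endoderm markers, 13.2 to 25.9 and 6.27 to 11.2 CPM and, for neural markers, 145 to 185 and 158 to 195 CPM. The part of such cells in the results was not tested. Dgcr8 itself was at 45.3 to 56.2 CPM in the 8 WT and at 173 to 256 CPM in the 8 KO libraries, which checks nothing where the deleted part is not known. The Y-linked gene Ddx3y had 8326 to 10946 counts in WT and 13 to 44 in KO libraries, so the lines also differed in Y-linked transcripts.

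Promoter sequences of the listed genes were searched for short motifs, and so were all promoter windows. RefSeq promoter windows (GRCm38.p6, 250 bases before to 50 after a transcription start) were found for 37 of the 45 genes, with 45 windows in all. The E2F motif, searched on both strands as TTTCCCGC, TTTCGCGC, TTTGCCGC or TTTGGCGC, was present in 15 of 45 windows (33.3%) and in 2.26% of all 32851 windows. The NF-Y motif CCAAT was in 55.6% of the members' windows and 37.4% of all windows, and the CHR motif TTTGAA in 11.1% and 17.9%. The last 120 bases before the start are printed for the gene with most E2F matches, Mcm6, for Orc1 and Gins3 with 1 match each, and for Rrm2 and Mcm2, the genes with the largest change on pausing and between genotypes, whose windows held none. Capitals mark E2F matches, which overlap at the first site of Mcm6.
Mcm6 (chr1:128359706-128359825, minus strand): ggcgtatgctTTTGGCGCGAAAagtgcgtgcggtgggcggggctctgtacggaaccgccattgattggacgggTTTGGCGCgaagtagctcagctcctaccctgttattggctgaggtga
Orc1 (chr4:108579334-108579453, plus strand): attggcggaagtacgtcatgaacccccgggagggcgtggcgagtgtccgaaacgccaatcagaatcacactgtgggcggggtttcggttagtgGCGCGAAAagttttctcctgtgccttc
Gins3 (chr8:95633439-95633558, plus strand): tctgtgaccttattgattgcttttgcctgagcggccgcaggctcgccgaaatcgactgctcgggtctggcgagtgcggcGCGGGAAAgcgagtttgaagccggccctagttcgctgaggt
Rrm2 (chr12:24708134-24708253, plus strand): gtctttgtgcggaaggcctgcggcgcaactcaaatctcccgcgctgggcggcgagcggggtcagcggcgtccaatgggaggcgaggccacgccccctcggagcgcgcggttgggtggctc
Mcm2 (chr6:88898781-88898900, minus strand): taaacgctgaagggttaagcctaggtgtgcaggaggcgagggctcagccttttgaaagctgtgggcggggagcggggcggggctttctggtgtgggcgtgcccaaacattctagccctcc
A match describes the letters only. In paused KO cells Mcm6, with matches, and Rrm2, without, both fell, while Orc1, with a match, rose and Gins3 did not pass the test.

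The first comparison asked how mTOR inhibition changes the replication genes in WT cells and the second asked the same in Dgcr8 KO cells. Most of the 45 genes were modestly lower in paused cells, and more of them, by a larger amount, in KO than in WT cells. In WT cells 28 genes fell and 7 rose by edgeR's quasi-likelihood test (adjusted p under 0.05), when 27.5% of all tested genes fell and 33.2% rose. The median log2 fold change, paused over normal, was −0.18 over the 45 genes and 0.04 over all genes. In KO cells 37 fell and 4 rose, where 32.7% of all genes fell and 34.4% rose, with medians of −0.34 and 0.02. The 28 genes that fell in WT cells all fell in KO cells, and the same share over all tested genes was not counted. Groups of 4 libraries did not overlap for 29 of the 45 genes (64.4%) in WT and for 42 (93.3%) in KO cells, against 54% and 64% of all tested genes. Of all tested genes 60.7% and 67.1% were called in either direction. RNA was measured in bulk, so fewer cells in S phase and less RNA of these genes per cell cannot be told apart. CPM is relative to the library, so genes fell or rose relative to other genes. A change in total RNA per cell would not show.

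No member changed by 1 or more on the log2 scale in WT cells, and 2 did in KO cells, Rrm2 and Tk1. Orc1, Pold1 and Pole rose in both genotypes, Pold3 rose in WT and fell in KO cells, and Orc5 rose in KO cells only by the test. Cdc45, Gins3 and Pola1 rose in WT cells with groups that overlapped and did not pass in KO cells. Orc3 did not pass in either. All 41 calls in KO cells were also made, with the same sign, in replicates 1 and 2 and in replicates 3 and 4 alone. These pairs cut across the division of the KO paused libraries, so the repeated calls do not check that division. Of the 35 calls in WT cells 25 were, and Orc1, Orc6, Mcm10, Cdc45, Gins3, Pola1, Prim2, Pold2, Pole2 and Fen1 were not. How many calls over all tested genes repeat in both pairs was not counted for any comparison. With the fit restricted to protein-coding genes, which changes both the library sizes and the genes tested, 31 fell and 3 rose in WT cells.

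**Figure D1:**
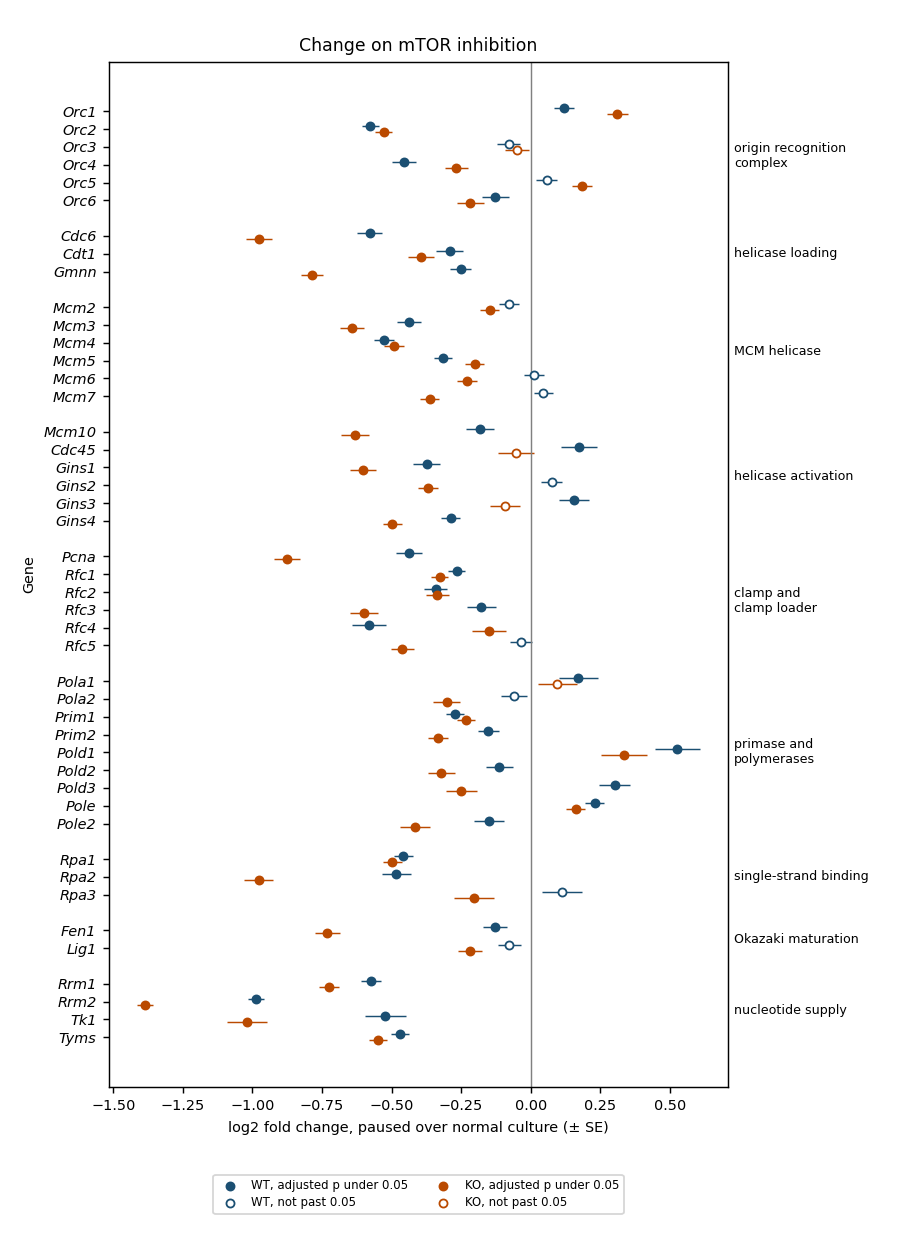
Log2 fold change, paused over normal culture, of the 45 replication genes by role, in WT (blue) and KO (orange) cells, with bars of 1 SE and filled points where the adjusted p was under 0.05. Points to the left of the line at 0 are lower in paused cells, 28 called genes in WT and 37 in KO cells.

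The difference in response between genotypes was tested with an interaction term, defined as the KO minus the WT log2 change on pausing. It was negative for 24 genes and positive for 3, where 24.5% and 17.4% of all genes were called, and its median was −0.20 over the 45 and −0.03 over all genes. The most negative values were those of Fen1 (−0.60 ± 0.06), Pold3 (−0.55 ± 0.08), Gmnn (−0.53 ± 0.05), Tk1 (−0.50 ± 0.10) and Rpa2 (−0.50 ± 0.07). The positive ones were those of Rfc4 (0.43 ± 0.09), Orc1 (0.19 ± 0.05) and Orc4 (0.19 ± 0.06). The count of negative interactions was 28 in replicates 1 and 2 and 16 in replicates 3 and 4 alone, and it was 16 without WT normal replicate 2. Of the 27 calls, 15 were made with the same sign in both pairs, namely Cdc6, Gmnn, Mcm3, Mcm7, Mcm10, Gins2, Pcna, Rfc3, Rfc4, Rfc5, Pold3, Rpa2, Fen1, Rrm2 and Tk1. The fit restricted to protein-coding genes gave 17 negative and 6 positive.

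Nucleotide supply showed the largest falls. Rrm2 (ENSMUSG00000020649.11, chr12:24708241-24714146, GRCm38), the small subunit of ribonucleotide reductase, which makes deoxynucleotides, had 331, 325, 331 and 334 CPM in WT normal and 168, 166, 167 and 165 CPM in WT paused libraries. Rrm2 levels in KO normal libraries were 407, 400.3, 400.3 and 401 CPM, and KO paused libraries had 156, 154, 159 and 147 CPM. Rrm2 was lower in every paused library than in any normal library, and its highest group, KO normal, became its lowest when paused. It fell by 0.99 ± 0.03 (SE, log2 scale) in WT cells (adjusted p = 1.8e-14) and by 1.38 ± 0.03 in KO cells (adjusted p = 1.2e-16), with an interaction of −0.40 ± 0.04 (adjusted p = 5.4e-07). Tk1 (ENSMUSG00000025574.13, chr11:117815526-117826092), the thymidine kinase of the salvage pathway, had 45.6, 45.8, 57.9 and 57.6 CPM in WT normal and 40.1, 35.1, 35.1 and 33.7 CPM in WT paused libraries. Tk1 levels in KO normal libraries were 66.8, 68.9, 68.8 and 69.4 CPM, and KO paused libraries had 35.1, 34.1, 32.9 and 33.2 CPM. Tk1 levels divided WT normal replicates 1 and 2 from the higher replicates 3 and 4, and paused libraries lay below all of them. The fall of Tk1 in WT cells, −0.52 ± 0.07 over all libraries, was −0.28 in replicates 1 and 2 (adjusted p = 0.00069) and −0.75 in replicates 3 and 4 (adjusted p = 5.3e-10), and in KO cells it fell by 1.02 ± 0.07 (adjusted p = 8.3e-10). Its interaction was −0.70 in replicates 1 and 2 (adjusted p = 1.2e-05) and −0.31 in replicates 3 and 4 (adjusted p = 0.00041).

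The large reductase subunit Rrm1 (ENSMUSG00000030978.10, chr7:102441695-102469771) had 286, 282, 289 and 297 CPM in WT normal and 189, 185, 201 and 199.9 CPM in WT paused libraries. Rrm1 levels in KO normal libraries were 276, 269, 272 and 274 CPM, and KO paused libraries had 174, 159, 169.6 and 158 CPM. Normal and paused groups of Rrm1 did not overlap in either genotype, and the falls were 0.57 ± 0.04 in WT (adjusted p = 1.6e-10) and 0.72 ± 0.04 in KO cells (adjusted p = 6.1e-12). The ratio of Rrm2 to Rrm1, in CPM per kilobase of transcript, went from 2.07 ± 0.0824 to 1.56 ± 0.109 (SD, n = 4) in WT and from 2.66 ± 0.0629 to 1.65 ± 0.0609 in KO cells. Tyms, thymidylate synthase, fell by 0.47 ± 0.03 and 0.55 ± 0.03 in WT and KO cells, without overlap of the groups.

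**Figure D2:**
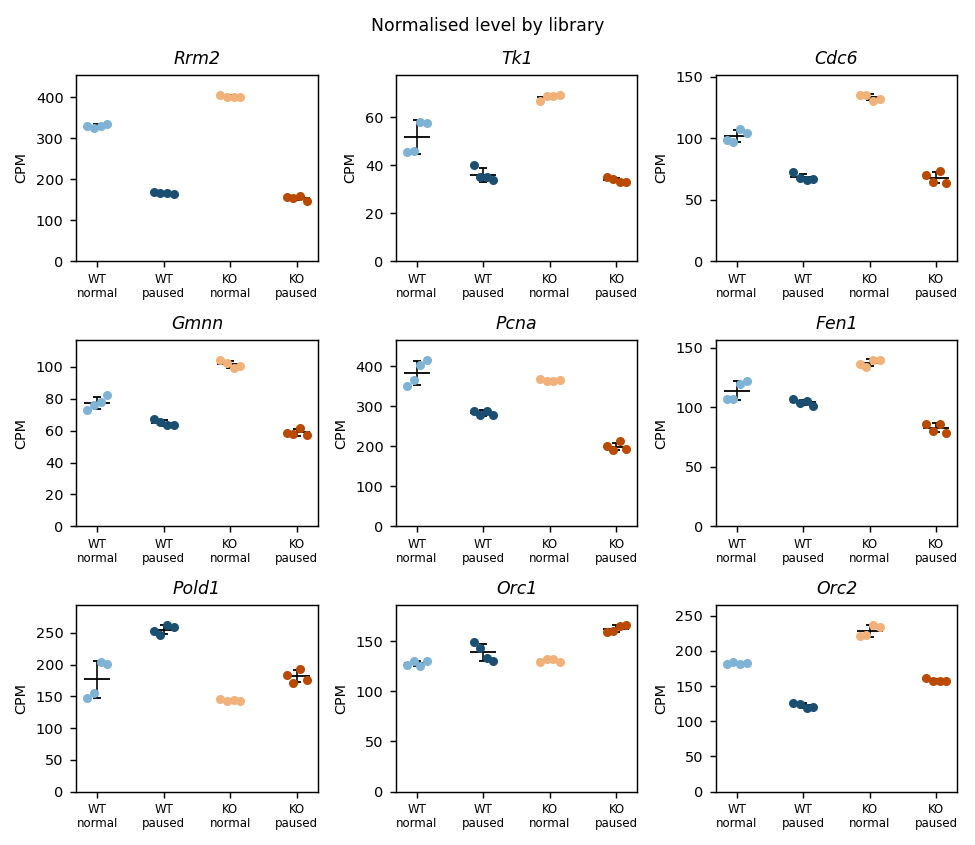
CPM of 9 replication genes in each of the 16 libraries, as points in the order of replicates 1 to 4 within a group, with the mean and SD as bars. Rrm2 falls from 325 to 407 CPM in normal libraries to 147 to 168 CPM in paused ones, Tk1 and Pold1 separate WT normal replicates 1 and 2 from 3 and 4, and Pold1 and Orc1 are higher when paused.

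Helicase loading genes fell in both genotypes, all 3 of them, where 27.5% of all genes fell in WT and 32.7% in KO cells. Cdc6 (ENSMUSG00000017499.15, chr11:98907801-98923940), the ATPase that joins ORC to recruit the helicase, had 98.4, 97, 107 and 104 CPM in WT normal and 72.6, 67.5, 65.9 and 66.4 CPM in WT paused libraries. Cdc6 levels in KO normal libraries were 135, 135, 130.3 and 132 CPM, and KO paused libraries had 69.6, 64.4, 72.9 and 63.8 CPM. Normal libraries of KO cells were the highest for Cdc6, and the paused libraries of both genotypes overlapped. Cdc6 fell by 0.58 ± 0.05 in WT (adjusted p = 2.9e-09) and by 0.98 ± 0.05 in KO cells (adjusted p = 2.4e-12), with an interaction of −0.40 ± 0.06 (adjusted p = 8.7e-05). Gmnn (ENSMUSG00000006715.11, chr13:24751845-24761923), geminin, the inhibitor of Cdt1, had 72.6, 76.3, 77.7 and 82.2 CPM in WT normal and 67.4, 65.2, 63.3 and 63.5 CPM in WT paused libraries. Gmnn levels in KO normal libraries were 104, 102, 99.3 and 101 CPM, and KO paused libraries had 58.7, 58.1, 61.9 and 57.2 CPM. The 4 groups of Gmnn did not overlap, with KO normal highest and KO paused lowest. Gmnn fell by 0.25 ± 0.04 in WT (adjusted p = 1.6e-05) and by 0.79 ± 0.04 in KO cells (adjusted p = 4.9e-12).

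Cdt1 (ENSMUSG00000006585.3, chr8:122568015-122573554), which brings the MCM ring to ORC, had 229, 231, 243 and 247 CPM in WT normal and 197, 182, 202 and 195 CPM in WT paused libraries. Cdt1 levels in KO normal libraries were 263, 248, 251 and 257 CPM, and KO paused libraries had 189, 178, 214 and 194 CPM. Every paused library of Cdt1 was below every normal one. It fell by 0.29 ± 0.05 in WT (adjusted p = 3.5e-05) and by 0.39 ± 0.05 in KO cells (adjusted p = 7.6e-07), and the interaction of −0.10 ± 0.07 did not pass (adjusted p = 0.24). The ratio of Cdt1 to its inhibitor Gmnn, per kilobase, was 1.204 ± 0.0279 in WT normal, 1.17 ± 0.0687 in WT paused, 0.969 ± 0.0243 in KO normal and 1.27 ± 0.0671 in KO paused cells (SD, n = 4). The ratio was thus lowest in KO cells in normal culture, where no library reached the lowest of the other groups.

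ORC subunits did not move together. Orc1 (ENSMUSG00000028587.18, chr4:108579423-108614833), the subunit whose level cycles with the cell cycle in many cells, had 126, 129.7, 125 and 129.7 CPM in WT normal and 149, 143, 134 and 129.97 CPM in WT paused libraries. Orc1 levels in KO normal libraries were 129.5, 132, 132 and 129.6 CPM, and KO paused libraries had 159, 160.0, 165 and 166 CPM. KO paused libraries were the highest for Orc1 and overlapped with no other group, while WT paused replicates 3 and 4 lay close to the normal ones. Orc1 rose by 0.31 ± 0.04 in KO cells (adjusted p = 5.7e-07). In WT cells the rise of 0.12 ± 0.04 (adjusted p = 0.0092) was 0.19 in replicates 1 and 2 (adjusted p = 0.0013) and 0.04 in replicates 3 and 4 (adjusted p = 0.3), and it did not pass without WT normal replicate 3 or WT paused replicate 1. Orc2 (ENSMUSG00000026037.14, chr1:58462771-58505109), a core subunit, moved the other way, with 182, 184, 181 and 183 CPM in WT normal and 126, 124, 119 and 121 CPM in WT paused libraries. Orc2 levels in KO normal libraries were 221, 222, 237 and 234 CPM, and KO paused libraries had 161, 157, 157 and 158 CPM. None of the 4 groups of Orc2 overlapped, and it fell by 0.58 ± 0.03 in WT and 0.53 ± 0.03 in KO cells. The ratio of Orc1 to Orc2 per kilobase went from 0.674 ± 0.0132 to 1.14 ± 0.0433 in WT and from 0.562 ± 0.018 to 1.05 ± 0.031 in KO cells (SD, n = 4). Of the other core subunits Orc4 fell by 0.46 ± 0.04 and 0.27 ± 0.04 and Orc6 by 0.13 ± 0.05 and 0.22 ± 0.05 in WT and KO cells, and Orc5 rose by 0.18 ± 0.04 in KO cells (0.06 ± 0.04 in WT cells, adjusted p = 0.19). Orc3 was at −0.08 ± 0.04 and −0.05 ± 0.04, with overlapping groups.

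The 6 MCM subunits form 1 ring, and all 6 fell in paused KO cells, where 32.7% of all genes did. In paused WT cells only Mcm3, Mcm4 and Mcm5 fell by the test, where 27.5% of all genes did. Mcm3 (ENSMUSG00000041859.10, chr1:20802968-20820312) had 603, 615, 633 and 639 CPM in WT normal and 454, 435, 480.5 and 469.8 CPM in WT paused libraries. Mcm3 levels in KO normal libraries were 1009.9, 957, 978 and 1003 CPM, and KO paused libraries had 646, 582, 684 and 620.0 CPM. KO normal libraries stood well above all others, and the paused KO libraries of Mcm3 reached the level of WT normal ones. Mcm3 fell by 0.44 ± 0.04 in WT (adjusted p = 6.9e-08) and 0.64 ± 0.04 in KO cells (adjusted p = 3.2e-10). Mcm4 (ENSMUSG00000022673.5, chr16:15623897-15637400) had 416, 404, 382 and 382 CPM in WT normal and 281, 280.1, 269 and 268 CPM in WT paused libraries. Mcm4 levels in KO normal libraries were 461, 459.7, 447 and 444 CPM, and KO paused libraries had 328, 312, 333 and 316 CPM. Paused libraries of Mcm4 lay below normal ones in both genotypes, with falls of 0.53 ± 0.03 and 0.49 ± 0.03 (interaction 0.04 ± 0.05, adjusted p = 0.58).

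Mcm7 (ENSMUSG00000029730.16, chr5:138164583-138172422) had 525, 529, 549.9 and 560.0 CPM in WT normal and 574, 538, 566 and 556 CPM in WT paused libraries. Mcm7 levels in KO normal libraries were 734, 716, 723 and 726 CPM, and KO paused libraries had 565, 546, 593 and 549.9 CPM. Only the KO normal libraries of Mcm7 stood apart, above the 3 other groups, which overlapped. Mcm7 was at 0.05 ± 0.03 in WT cells (adjusted p = 0.25) and fell by 0.36 ± 0.03 in KO cells (adjusted p = 1.7e-08), an interaction of −0.41 ± 0.05 (adjusted p = 2.3e-06). Mcm2 (ENSMUSG00000002870.8, chr6:88883474-88898780) had 627, 652, 656 and 675 CPM in WT normal and 619, 606, 636 and 611 CPM in WT paused libraries. Mcm2 levels in KO normal libraries were 332, 330.0, 343 and 339 CPM, and KO paused libraries had 307, 292, 322 and 293 CPM. Every KO library of Mcm2 was below every WT library, and pausing gave −0.08 ± 0.03 in WT (adjusted p = 0.061) and −0.15 ± 0.03 in KO cells (adjusted p = 0.0011). The WT value of Mcm2 was near the threshold and passed it when any of 10 single libraries was left out. Mcm5 fell by 0.32 ± 0.03 and 0.20 ± 0.03 in WT and KO cells, and Mcm6 was at 0.01 ± 0.03 in WT cells and fell by 0.23 ± 0.03 in KO cells.

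**Figure D3:**
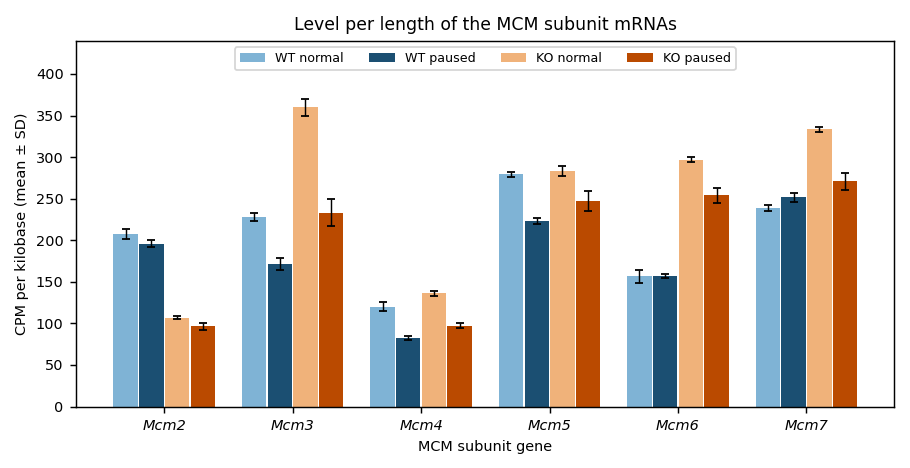
Level of the 6 MCM subunit mRNAs in CPM per kilobase of transcript, as means with SD over 4 libraries in each of the 4 groups. Mcm2 is lower in both KO groups than in both WT groups, and Mcm3, Mcm6 and Mcm7 are highest in KO normal cells.

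Levels per length showed how the subunits of the ring compare with each other. In WT normal cells the order in CPM per kilobase was Mcm5 (279 ± 2.91), Mcm7 (239 ± 3.54), Mcm3 (228 ± 4.95), Mcm2 (207 ± 6.27), Mcm6 (157 ± 7.55) and Mcm4 (120.1 ± 5.47; SD, n = 4). In KO normal cells it was Mcm3 (359.7 ± 9.76), Mcm7 (334 ± 3.06), Mcm6 (297 ± 2.93), Mcm5 (283 ± 5.59), Mcm4 (136 ± 3) and Mcm2 (107 ± 1.91). Mcm2 was thus the least abundant subunit mRNA in KO normal cells and above Mcm6 and Mcm4 in WT normal cells. In KO paused cells Mcm2 (96.4 ± 4.39) and Mcm4 (97 ± 2.88) differed by less than their SD. The ratio of Mcm6 to Mcm2 was 0.756 ± 0.0259 in WT normal and 0.803 ± 0.0154 in WT paused cells, and 2.78 ± 0.0704 and 2.63 ± 0.0403 in KO normal and KO paused cells. Among all 45 genes Pcna (299 ± 23), Mcm5 and Rpa1 (272 ± 10.8) were the most abundant per length in WT normal cells, and Pcna and Mcm5, like Mcm5 and Rpa1, differed by less than the larger of their SDs. Gins3 (8.19 ± 0.252) was the least abundant, below Pole2 (22.8 ± 2.08).

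Of the 6 helicase activation genes, 3 fell and 2 rose in paused WT cells, where 27.5% and 33.2% of all genes did. In paused KO cells 4 fell, where 32.7% of all genes did. Mcm10 (ENSMUSG00000026669.14, chr2:4989714-5012791), which helps the helicase to start unwinding, had 204, 205, 225 and 228 CPM in WT normal and 199, 189.5, 189 and 182 CPM in WT paused libraries. Mcm10 levels in KO normal libraries were 255, 254, 260.5 and 265 CPM, and KO paused libraries had 170.0, 151, 182 and 165 CPM. KO normal libraries were the highest for Mcm10 and KO paused libraries the lowest, with a narrow gap between both WT groups. Mcm10 fell by 0.63 ± 0.05 in KO cells (adjusted p = 2.7e-09), and its fall in WT cells, −0.18 ± 0.05 (adjusted p = 0.0043), was −0.07 in replicates 1 and 2 (adjusted p = 0.26) and −0.29 in replicates 3 and 4 (adjusted p = 2.9e-05). The GINS subunit gene Gins1 (ENSMUSG00000027454.10, chr2:150905400-150931280) had 40.1, 41.7, 45.1 and 44.2 CPM in WT normal and 33.4, 31.2, 34 and 33.5 CPM in WT paused libraries. Gins1 levels in KO normal libraries were 45.6, 43.4, 44.2 and 44.2 CPM, and KO paused libraries had 28.16, 28.3, 31.8 and 28.6 CPM. Paused and normal libraries of Gins1 did not overlap in either genotype, and it fell by 0.37 ± 0.05 and 0.60 ± 0.05. Gins4 (ENSMUSG00000031546.6, chr8:23226616-23237659) had 81.7, 84.2, 85.6 and 85.2 CPM in WT normal and 71.8, 67.3, 69.8 and 66.9 CPM in WT paused libraries. Gins4 levels in KO normal libraries were 78.9, 79.1, 81.6 and 78 CPM, and KO paused libraries had 55.4, 54.4, 59.2 and 56 CPM. The KO paused group of Gins4 was the lowest and overlapped with none, and the falls were 0.29 ± 0.03 and 0.50 ± 0.03.

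Gins2 (ENSMUSG00000031821.11, chr8:120578633-120589304) had 72.3, 72, 73.2 and 75 CPM in WT normal and 80.5, 76.4, 77.3 and 73.8 CPM in WT paused libraries. Gins2 levels in KO normal libraries were 113, 109.9, 106 and 101 CPM, and KO paused libraries had 83.1, 83.2, 85.5 and 81.7 CPM. KO normal libraries stood above all others, and the WT groups overlapped. Gins2 was at 0.07 ± 0.04 in WT cells (adjusted p = 0.083) and fell by 0.37 ± 0.04 in KO cells (adjusted p = 4.6e-08). Its exons share 2758 of 4097 bases with Gse1, a gene on the opposite strand with 99.1% as many counts, so the values of Gins2 are uncertain. Cdc45, the helicase cofactor, was at 0.17 ± 0.06 in WT cells, 0.35 in replicates 1 and 2 (adjusted p = 8.4e-06) and 0.01 in replicates 3 and 4 (adjusted p = 0.9), and at −0.05 ± 0.06 in KO cells (adjusted p = 0.47). Gins3 was at 0.15 ± 0.05 in WT cells, 0.23 in replicates 1 and 2 (adjusted p = 0.0036) and 0.06 in replicates 3 and 4 (adjusted p = 0.36), and at −0.09 ± 0.05 in KO cells (adjusted p = 0.13).

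Of the clamp and its loader, all 6 genes fell in KO cells and 5 in WT cells, against 32.7% and 27.5% of all genes. Pcna (ENSMUSG00000027342.14, chr2:132249162-132253314), the ring that holds polymerases on DNA, had 351, 365, 403 and 416 CPM in WT normal and 289, 278, 289 and 278 CPM in WT paused libraries. Pcna levels in KO normal libraries were 368, 364, 363 and 367 CPM, and KO paused libraries had 200.3, 190.1, 212 and 195 CPM. The normal groups overlapped between genotypes, and KO paused libraries of Pcna lay below every WT paused one. Pcna fell by 0.44 ± 0.05 in WT (adjusted p = 1.7e-07) and 0.87 ± 0.05 in KO cells (adjusted p = 1.3e-11), with an interaction of −0.44 ± 0.07 (adjusted p = 4.2e-05). Its processed copy Pcna-ps2, identical at 99.2% of 781 aligned bases, held 4.46% to 5.08% as many counts as Pcna in the 4 groups, so reads may be shared between them. Rfc5 (ENSMUSG00000029363.14, chr5:117378103-117389047), a loader subunit, had 220.4, 217, 234 and 241 CPM in WT normal and 221, 211, 231 and 229 CPM in WT paused libraries. Rfc5 levels in KO normal libraries were 214, 211, 216 and 216 CPM, and KO paused libraries had 154, 148, 167 and 154 CPM. Only the KO paused libraries stood apart, and Rfc5 was at −0.03 ± 0.04 in WT cells (adjusted p = 0.49) and fell by 0.46 ± 0.04 in KO cells (adjusted p = 1.2e-08).

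Rfc4 (ENSMUSG00000022881.15, chr16:23113943-23127737), another loader subunit, had 78.5, 81.8, 66.5 and 63.6 CPM in WT normal and 51, 47.8, 47.4 and 47.8 CPM in WT paused libraries. Rfc4 levels in KO normal libraries were 57.3, 55.6, 56.1 and 55.3 CPM, and KO paused libraries had 49.8, 48.9, 51.3 and 52 CPM. WT normal replicates 1 and 2 were the highest libraries for Rfc4, and both paused groups overlapped. It fell by 0.58 ± 0.06 in WT cells and by 0.15 ± 0.06 in KO cells (adjusted p = 0.037), a call that was lost when any of 7 KO libraries was left out. Exons of Rfc4 share 194 of 1533 bases with Eif4a2, a gene on the opposite strand with 740.2% of the counts of Rfc4, so its values are uncertain. The other loader subunits Rfc1 (−0.27 ± 0.03 and −0.33 ± 0.03), Rfc2 (−0.34 ± 0.04 and −0.34 ± 0.04) and Rfc3 (−0.18 ± 0.05 and −0.60 ± 0.05) fell in WT and KO cells.

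Of the 9 polymerase and primase genes, 4 rose and 4 fell in paused WT cells, where 33.2% and 27.5% of all genes did, and 2 rose and 6 fell in paused KO cells, where 34.4% and 32.7% did. Pold1 (ENSMUSG00000038644.14, chr7:44532746-44548849), the catalytic subunit of polymerase delta, had 148, 156, 204 and 201 CPM in WT normal and 252, 246, 263 and 259 CPM in WT paused libraries. Pold1 levels in KO normal libraries were 146, 142, 145 and 143 CPM, and KO paused libraries had 184, 172, 193 and 177 CPM. Paused libraries were higher for Pold1 in both genotypes without overlap, and WT normal replicates 3 and 4 exceeded replicates 1 and 2. Pold1 rose by 0.34 ± 0.08 in KO cells (adjusted p = 0.0017), and its rise in WT cells, 0.53 ± 0.08 (adjusted p = 2.8e-05), was 0.72 in replicates 1 and 2 (adjusted p = 1.2e-08) and 0.36 in replicates 3 and 4 (adjusted p = 1.6e-06). Pold3 (ENSMUSG00000030726.16, chr7:100082111-100121565), an accessory subunit of the same enzyme, had 56.6, 54.7, 66.5 and 66.6 CPM in WT normal and 72.9, 72.3, 79.4 and 76.7 CPM in WT paused libraries. Pold3 levels in KO normal libraries were 71.5, 67.2, 66.4 and 68.1 CPM, and KO paused libraries had 58, 56.8, 58.7 and 56.2 CPM. WT paused libraries were the highest for Pold3, and pausing moved it up in WT and down in KO cells, by 0.30 ± 0.06 (adjusted p = 0.00012) and −0.25 ± 0.06 (adjusted p = 0.00068). The interaction of Pold3, −0.55 ± 0.08, had an adjusted p of 2.5e-05, and Pold2 of the same enzyme fell by 0.11 ± 0.05 (adjusted p = 0.049) and 0.32 ± 0.05.

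Pole, the catalytic subunit of polymerase epsilon, rose by 0.23 ± 0.03 in WT and 0.16 ± 0.03 in KO cells. Its accessory subunit Pole2 (ENSMUSG00000020974.6, chr12:69201773-69228195) had 30.7, 30.7, 36.5 and 35.7 CPM in WT normal and 31.5, 28.21, 30.1 and 30.7 CPM in WT paused libraries. Pole2 levels in KO normal libraries were 41.1, 40.0, 39.8 and 40.1 CPM, and KO paused libraries had 29.9, 29.8, 29.9 and 31 CPM. KO normal libraries were the highest for Pole2, and both WT groups overlapped. Pole2 fell by 0.42 ± 0.05 in KO cells (adjusted p = 1.7e-06), and in WT cells the fall of 0.15 ± 0.05 (adjusted p = 0.023) was −0.04 in replicates 1 and 2 (adjusted p = 0.57) and −0.26 in replicates 3 and 4 (adjusted p = 7.5e-05). Prim2 (ENSMUSG00000026134.11, chr1:33453810-33669795), the large subunit of primase, had 48.6, 45.5, 47.9 and 49.7 CPM in WT normal and 44.7, 44.6, 41.1 and 42 CPM in WT paused libraries. Prim2 levels in KO normal libraries were 74.6, 74.4, 75.9 and 72.4 CPM, and KO paused libraries had 58.4, 60.6, 58.7 and 58.4 CPM. All KO libraries of Prim2 exceeded all WT libraries, and within each genotype paused libraries were lower, by 0.15 ± 0.04 in WT and 0.33 ± 0.04 in KO cells. Prim1, the catalytic primase subunit, fell by 0.27 ± 0.03 and 0.23 ± 0.03. Pola1, the catalytic subunit of polymerase alpha, was at 0.17 ± 0.07 in WT cells (adjusted p = 0.045), with opposite directions of −0.03 in replicates 1 and 2 (adjusted p = 0.65) and 0.38 in replicates 3 and 4 (adjusted p = 5.2e-07), and its partner Pola2 fell by 0.30 ± 0.05 in KO cells (−0.06 ± 0.05 in WT cells, adjusted p = 0.29).

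Among the 5 genes of single-strand binding and Okazaki fragment maturation, all fell in paused KO cells, where 32.7% of all genes did. Rpa2, Rpa3 and Fen1 had a negative interaction, as was called for 24.5% of all genes. Rpa2 (ENSMUSG00000028884.14, chr4:132768332-132778752), the middle subunit of RPA, had 145, 148, 163 and 169 CPM in WT normal and 116, 106, 115 and 110.0 CPM in WT paused libraries. Rpa2 levels in KO normal libraries were 173, 164, 167 and 171 CPM, and KO paused libraries had 89.1, 78.7, 91.9 and 83.1 CPM. Rpa2 groups overlapped in normal culture and did not overlap when paused, with KO lowest. It fell by 0.48 ± 0.05 in WT (adjusted p = 2e-07) and 0.98 ± 0.05 in KO cells (adjusted p = 1.4e-11). Rpa3 (ENSMUSG00000012483.4, chr6:8255936-8259173), the small subunit, had 22, 22.7, 28.3 and 29.3 CPM in WT normal and 28.8, 28.13, 26.1 and 27.4 CPM in WT paused libraries. Rpa3 levels in KO normal libraries were 29.3, 29.6, 29.5 and 28.4 CPM, and KO paused libraries had 25.4, 25.6, 25.7 and 24.8 CPM. In WT normal cells replicates 1 and 2 were the lowest libraries for Rpa3 and replicates 3 and 4 among the highest, so that this group overlapped with each of the others. It fell by 0.20 ± 0.07 in KO cells, and in WT cells it was at 0.11 ± 0.07 (adjusted p = 0.18), with 0.35 in replicates 1 and 2 (adjusted p = 2.2e-05) and −0.11 in replicates 3 and 4 (adjusted p = 0.057). Rpa1, the large subunit, fell by 0.46 ± 0.03 and 0.50 ± 0.03.

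Fen1 (ENSMUSG00000024742.15, chr19:10199132-10204169), the flap nuclease that trims Okazaki fragments, had 107, 107, 119 and 122 CPM in WT normal and 107, 103, 105 and 101 CPM in WT paused libraries. Fen1 levels in KO normal libraries were 136, 133, 139.7 and 140.0 CPM, and KO paused libraries had 86, 80.3, 86.2 and 78.7 CPM. The WT groups of Fen1 nearly touched, while KO normal and KO paused libraries were the highest and the lowest. Fen1 fell by 0.73 ± 0.04 in KO cells (adjusted p = 7.3e-11), and in WT cells its change, −0.13 ± 0.04 (adjusted p = 0.018), was −0.03 in replicates 1 and 2 (adjusted p = 0.65) and −0.23 in replicates 3 and 4 (adjusted p = 0.00019). The interaction of Fen1 was the most negative of the 45 genes, −0.68 in replicates 1 and 2 (adjusted p = 1.5e-06) and −0.53 in replicates 3 and 4 (adjusted p = 8e-06). Lig1, the ligase that joins the fragments, was at −0.08 ± 0.04 in WT cells (adjusted p = 0.13) and fell by 0.22 ± 0.04 in KO cells.

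The comparison of genotypes set KO against WT cells in each culture. In normal culture 23 of the 45 genes were higher in KO than in WT cells and 8 lower, where 34.1% of all genes were called in each direction. The median log2 fold change, KO over WT, was 0.12 over the 45 and −0.03 over all genes. In paused cells 10 were higher and 17 lower, against 30.8% and 34.5% of all genes, with medians of −0.05 and −0.03. In normal culture the fit restricted to protein-coding genes gave 19 higher and 14 lower, replicates 1 and 2 alone 27 and 8, and replicates 3 and 4 alone 19 and 11. In paused cells replicates 1 and 2 alone gave 7 higher and 19 lower, and replicates 3 and 4 alone 13 and 15. Groups did not overlap for 31 genes (68.9%) in normal culture and for 27 (60%) in paused cells, near the 60.5% and 63.4% of all tested genes. Of all tested genes 68.2% and 65.4% were called in either direction. The genotype comparisons share their libraries with the pausing comparisons, so their values are another view of the same data.

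**Figure D4:**
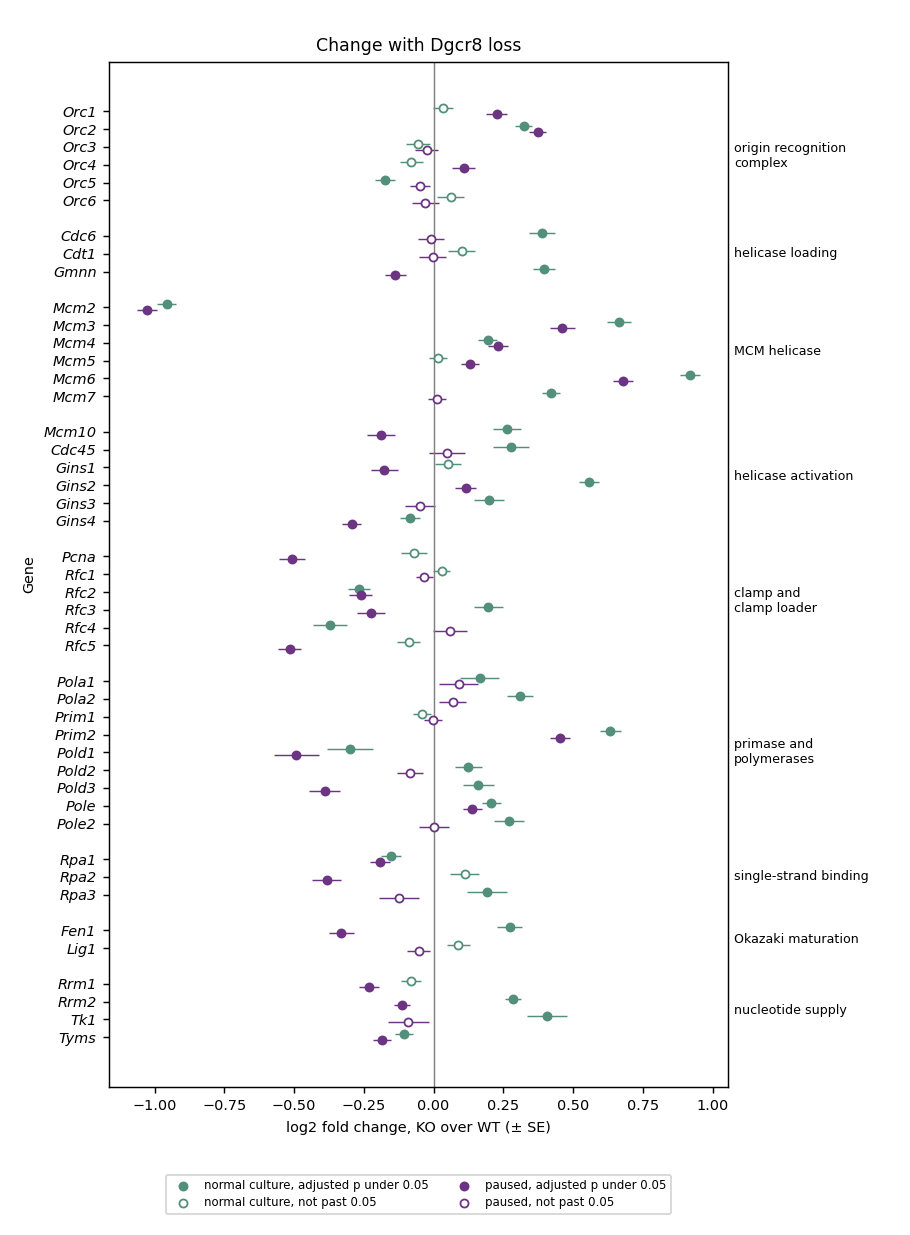
Log2 fold change, KO over WT, of the 45 replication genes by role in normal culture (green) and paused cells (purple), with bars of 1 SE and filled points where the adjusted p was under 0.05. Mcm2 lies near −1 and Mcm6, Mcm3 and Prim2 lie highest in both cultures, while genes such as Gmnn, Fen1 and Rrm2 lie right of 0 in normal culture and left of it when paused.

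By the test 7 genes were higher in KO cells in both cultures, Orc2, Mcm3, Mcm4, Mcm6, Gins2, Prim2 and Pole, and 6 were lower in both, Mcm2, Gins4, Rfc2, Pold1, Rpa1 and Tyms. With length-scaled TPM counts, which allow for a change in transcript length, Tyms was higher in KO cells in normal culture (0.13, adjusted p = 0.013) and at −0.04 when paused (adjusted p = 0.46), and Gins2 was at −0.03 when paused (adjusted p = 0.81). Another 6, Gmnn, Mcm10, Rfc3, Pold3, Fen1 and Rrm2, were higher in KO cells in normal culture and lower when paused. How many of all tested genes have each of these patterns over both cultures was not counted. Gmnn went from 0.40 ± 0.04 (adjusted p = 4e-08) to −0.14 ± 0.04 (adjusted p = 0.0047), Fen1 from 0.27 ± 0.04 (adjusted p = 2.5e-05) to −0.33 ± 0.04 (adjusted p = 3e-06) and Rrm2 from 0.29 ± 0.03 (adjusted p = 5.2e-08) to −0.11 ± 0.03 (adjusted p = 0.002). Cdc6 (0.39 ± 0.05) and Tk1 (0.41 ± 0.07) were higher in KO cells in normal culture and at −0.01 ± 0.05 and −0.09 ± 0.07 when paused, which did not pass. Pcna, Rfc5 and Rpa2 were lower in KO cells when paused, by 0.51 ± 0.05, 0.52 ± 0.04 and 0.38 ± 0.05, and did not pass in normal culture. The lower level of Pold1 in KO cells in normal culture, −0.30 ± 0.08, was −0.07 in replicates 1 and 2 (adjusted p = 0.19) and −0.50 in replicates 3 and 4 (adjusted p = 4.1e-08), and when paused it was −0.49 ± 0.08 (adjusted p = 5.2e-05).

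Some of the genotype differences lay where neighbouring genes differed in the same way. In normal culture Mcm2 was lower in KO cells by 0.96 ± 0.04 (adjusted p = 7.9e-14), and in paused cells by 1.03 ± 0.04 (adjusted p = 5.3e-14). The 57 protein-coding genes whose start lies within 5 Mb of Mcm2 on chromosome 6 (mean log2 CPM of at least 3, members of the list left out) had medians of −0.827 and −1.004. In 10 Mb windows of that chromosome the median in normal culture was −0.83 from 80 to 90 Mb and −0.83 from 90 to 100 Mb, and 0.02 and 0.13 in the windows on either side. Mcm6, Mcm3, Prim2 and Orc2 are the 4 members on chromosome 1, and they were higher in KO cells by 0.92 ± 0.04, 0.67 ± 0.04, 0.63 ± 0.04 and 0.32 ± 0.03 in normal culture and by 0.68 ± 0.03, 0.46 ± 0.04, 0.45 ± 0.04 and 0.37 ± 0.03 when paused. The other 532 protein-coding genes of chromosome 1 had medians of 0.67 and 0.61, with 93.4% of them above 0 in each culture, and the 10 windows of 20 Mb along it had medians of 0.56 to 0.80 in normal culture. Genes of chromosome 1 took 7.9% to 8.06% of protein-coding counts in the 8 KO and 5.43% to 5.77% in the 8 WT libraries.

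For these 5 genes the loss of Dgcr8 and a difference between the lines at the position of the gene cannot be told apart in these data. For the other members and for every interaction, loss of Dgcr8 likewise cannot be told apart from any other difference between the lines. The lines also differed in Y-linked transcripts, as given above. DNA was not analysed here. Each of the 5 lay within 0.25 of the median of its neighbours in both cultures, and no other member had neighbours with a median beyond 0.4 in either direction. On the other chromosomes 19 of 41 members were higher and 8 lower in KO cells in normal culture, and 6 were higher and 17 lower when paused. Over all tested genes 34.1% were called in each direction in normal culture, and 30.8% were higher and 34.5% lower when paused. Those shares include chromosome 1, and shares without it were not counted. Members that differed by over 0.4 while their neighbours did not were Mcm7, Gins2 and Tk1 in normal culture and Pcna, Rfc5 and Pold1 in paused cells. This description was made after the values were seen and carries no test.

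**Figure D5:**
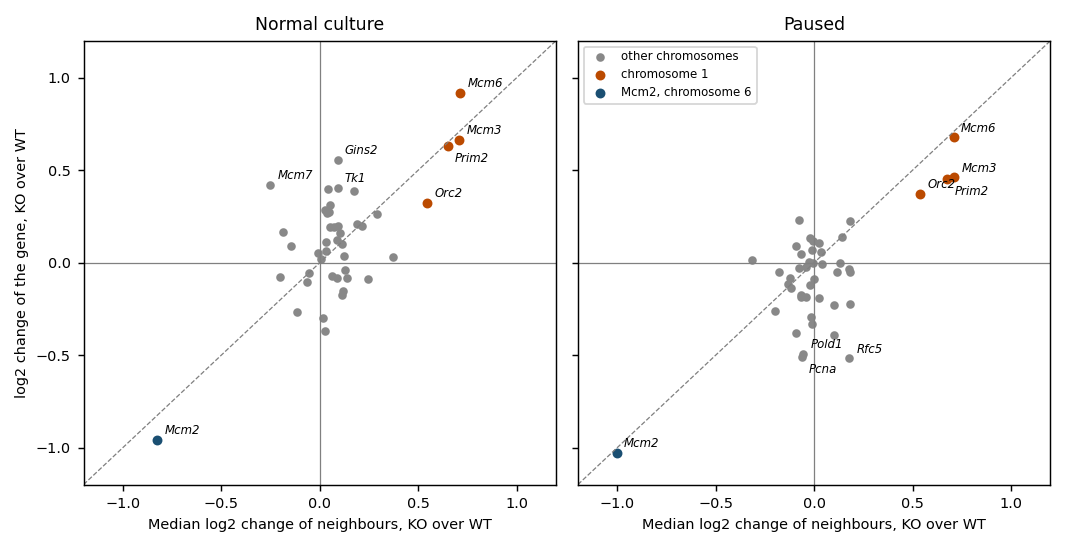
Log2 fold change, KO over WT, of each of the 45 genes against the median of protein-coding genes starting within 5 Mb of it, in normal culture (left) and paused cells (right), with the dashed line where both are equal. The 4 genes of chromosome 1 and Mcm2 on chromosome 6 lie away from the origin near the dashed line. The other genes have neighbours with a median within 0.4 of 0.

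Mcm7 has a further link to Dgcr8, since its introns host 3 microRNA genes that the Drosha and DGCR8 complex cuts from the transcript. These are Mir106b, Mir93 and Mir25 (GRCm38.p6, chromosome 5, minus strand, hairpins within 138165321 to 138165818). The mature sequences from RefSeq are printed to show the seeds, bases 2 to 8, in capitals; miR-106b-5p and miR-93-5p share a seed and miR-25-3p has another.
miR-106b-5p (chr5:138165787-138165807): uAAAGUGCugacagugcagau
miR-93-5p (chr5:138165574-138165596): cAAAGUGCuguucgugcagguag
miR-25-3p (chr5:138165332-138165353): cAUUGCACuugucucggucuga
The transcript Mcm7-203, annotated as a retained intron and without exons over the hairpins, made up 5.1% to 6.2% of the TPM of Mcm7 in WT normal and 5.49% to 7.14% in WT paused libraries, and 9.93% to 11.8% in KO normal and 11.9% to 13.6% in KO paused libraries. All KO libraries exceeded all WT libraries. Mcm7-202, a retained intron whose exon covers the Mir25 and Mir93 hairpins, made up 2.37% to 3.93% and 3.71% to 4.14% in WT normal and paused and 2.34% to 2.7% and 3.32% to 3.86% in KO normal and paused libraries, with no such separation. Exons of Mcm7 share 64 bases with Cops6 on the opposite strand, which had 25.6% as many counts.

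Transcript shares of other members also divided the groups, and 3 of these members are given as examples. The 3 examples were chosen after their values were seen, as were those of Mcm7, and carry no test. Other members divided too, such as Mcm5-201, at 11.1% to 11.5% in normal and 12.2% to 12.9% in paused libraries. How many transcripts of all genes divide the groups in this way was not counted. Orc6-203, a retained intron, made up 8.98% to 9.87% of Orc6 in WT normal and 8.77% to 9.19% in KO normal libraries, and 15.8% to 17.3% and 18.5% to 21.2% in WT and KO paused libraries. Rfc2-202, also a retained intron, made up 6.33% to 8.67% and 7.45% to 10.02% in normal and 13.9% to 15% and 16.5% to 19.1% in paused WT and KO libraries. Both shares were higher in every paused library than in any normal one. Lig1-211, a protein-coding form, made up 11.2% to 14.8% of Lig1 in WT normal and 2.47% to 3.45% in WT paused libraries and at most 0.253% in any KO library. Exons of Orc6 share 171 bases with Vps35 on the opposite strand, which had 310.2% of its counts. Exons of other members overlap with genes on the opposite strand, namely Cdc45 (Ufd1), Fen1 (Tmem258), Orc2 (Nif3l1), Orc4 (Acvr2a and Mbd5) and Rfc5 (Wsb2), and those of Pole2 overlap with Gm49384 on its own strand. Whether the counting used strand is not given in the sources used here, so values of these genes are uncertain to that degree.

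The microRNAs that dominate in ESCs, the miR-290 and miR-302 families, share the seed AAGUGCU and pair with AGCACTT. This 7-base site was present in the longest 3′ UTR of 5 of the 45 genes (11.1%), against 16.7% of 16681 tested genes with an annotated UTR. The median UTR was 529 bases long for the members and 1137 bases for all. The mature sequence of 1 member of the family and the 5 sites in their surroundings are printed with the seed and the site in capitals, the sites as they stand in the transcript in GENCODE M21 (GRCm38).
miR-294-3p (GRCm38.p6, chr7:3220691-3220712, plus strand): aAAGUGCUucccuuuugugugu
Cdc6: gtgatcccAGCACTTgggaaata
Gins3: gcggattgAGCACTTgaagagca
Rfc2: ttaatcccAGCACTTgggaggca
Rpa2: agtagtaaAGCACTTgcctgcca
Tyms: caggtagaAGCACTTgcagtccc
In normal culture the KO over WT values of these genes were 0.39 ± 0.05 for Cdc6, 0.20 ± 0.05 for Gins3, 0.11 ± 0.05 for Rpa2, −0.27 ± 0.04 for Rfc2 and −0.11 ± 0.03 for Tyms. Cdc6 and Gins3 were thus higher in KO cells, Rfc2 lower, and Rpa2 did not pass (adjusted p = 0.064). Tyms was lower on counts and higher with length-scaled TPM counts, as given above. The longest UTR was taken whether or not that form is expressed. For Rfc2 and Tyms it had 3849 and 2172 bases. The TPM-weighted effective length of their whole transcripts was only 0.98 and 0.91 kilobases. The expressed forms of Rfc2 and Tyms were thus on average shorter than that UTR and may lack the site.

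A wider list of 45 other replication genes was also counted. In paused WT cells 22 fell and 17 rose, and in paused KO cells 30 fell and 10 rose, with 22 negative and 7 positive interactions, beside the shares of all genes given above (27.5% and 33.2% in WT, 32.7% and 34.4% in KO, 24.5% and 17.4% for the interaction). The medians of this list were −0.11 in WT and −0.25 in KO cells. Nucleotide enzymes that fell in both genotypes included Nme1, a nucleoside diphosphate kinase (−1.18 ± 0.06 in WT and −1.45 ± 0.06 in KO cells), Dut, which removes dUTP (−0.76 ± 0.06 and −0.88 ± 0.06), and Dctpp1, a dCTP pyrophosphatase (−0.73 ± 0.06 and −1.02 ± 0.06). Tipin, of the fork protection complex, fell by 0.78 ± 0.04 and 0.82 ± 0.04. Ticrr, a factor of helicase activation, rose by 0.38 ± 0.04 and 0.69 ± 0.04, and Rrm2b, the reductase subunit used outside S phase, by 0.27 ± 0.10 and 0.58 ± 0.10. Chaf1b, a histone chaperone subunit of the fork, had the most negative interaction of this list, −0.82 ± 0.08, with a rise of 0.26 ± 0.05 in WT and a fall of 0.56 ± 0.05 in KO cells.

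Of 15 genes of the E2F and Rb families, the transcription factors that drive G1/S genes and their partners, 6 rose and 2 fell in paused WT cells and 4 rose and 6 fell in paused KO cells. Of all genes 33.2% rose and 27.5% fell in WT and 34.4% and 32.7% in KO cells, so the KO counts lie near the background. Their interaction was negative for 9 and positive for 1, where 24.5% and 17.4% of all genes were called. Their medians on pausing were 0.09 in WT and −0.03 in KO cells. The activator E2f1 rose by 0.58 ± 0.06 in WT cells and was at −0.03 ± 0.06 in KO cells, and E2f2 and E2f3 were at 0.11 ± 0.08 and −0.16 ± 0.05 in WT and fell by 0.65 ± 0.08 and 0.71 ± 0.05 in KO cells. Tfdp1, the DNA-binding partner of E2F proteins, fell by 0.61 ± 0.05 and 0.93 ± 0.05. The Rb relative Rbl1 rose by 0.64 ± 0.06 and 0.51 ± 0.06. In normal culture E2f1 and E2f2 were higher in KO than in WT cells, by 0.93 ± 0.06 and 0.77 ± 0.08, and the repressors E2f7 and E2f8 were lower, by 0.83 ± 0.04 and 0.53 ± 0.07.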

How the data were processed

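Poly(A) RNA of 16 libraries was analysed. The authors quantified transcripts with kallisto on GRCm38, per the submitters' processing notes, version not given in the sources used here. The deposited files hold estimated counts, TPM and effective lengths per transcript, per the file headers. Of 118489 transcripts, 116816 matched GENCODE M21 by identifier; the other 1673, with 0.643% to 0.697% of counts, were left out. Estimated counts were summed over the transcripts of a gene and rounded, giving 36047 genes, of which 18965 passed filterByExpr of edgeR (minimum count 10). CPM used TMM library sizes. CPM per kilobase divides by the TPM-weighted effective length.

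All 16 libraries, in 4 groups, were fitted with the quasi-likelihood test of edgeR 4.0.16 (R 4.3.3, limma 3.58.1), with Benjamini-Hochberg adjustment over all tested genes and a threshold of 0.05. Effects are log2 fold changes ± SE. Library totals were 88377380 to 116646028 counts. Members and lists were chosen with earlier results of these data known. Values per library are given for the members of each role with the largest called change in a comparison, and for a few fixed pairs such as Cdt1 and Gmnn; other members are given by fold change. Same-numbered libraries correlated between −0.0482 and 0.0975 in their deviations from group means, so numbers were not taken as pairs. Tested on simulated data with 200 of 18965 genes changed, the fit recovered 94% of changes of 1 and 69% of changes of 0.5 on the log2 scale for pausing in WT cells, and 4.68% of its calls were false. For the interaction it recovered 88% and 69%. Simulated libraries were independent, without the division of replicates seen here, and far fewer genes were changed than were called in these data. The rates may therefore not carry over to these data. Alternatives were DESeq2 1.42.0, other scalings and filters, length-scaled TPM counts, the replicate block, the pairs of replicates alone and each library left out. Motifs and sites were searched in RefSeq (GRCm38.p6) and GENCODE M21 sequences with Python 3.11.15, and copies with blastn 2.17.0+. Values of 1 gene of the wider replication list are not reported here, though the gene is included where the list is counted.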

Additional observations from a re-analysis of the deposited data

Results flagged for a closer look

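In groups of 4 libraries, 1 library lay far from the other 3 for 7 of 180 combinations of gene and group, where chance flags about 1 in 20. These were Orc2 in KO paused replicate 1 (161.4 CPM), Gins1 in KO paused replicate 3 (31.76 CPM), Rfc1 in KO normal replicate 1 (181.7 CPM), Rfc4 in WT paused replicate 1 (51.05 CPM), Prim1 in WT paused replicate 1 (67.11 CPM), Prim2 in KO paused replicate 2 (60.63 CPM) and Pole2 in KO paused replicate 4 (31 CPM).

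The effect of pausing differed between genotypes for 27 genes by edgeR's interaction test, given as the log2 change in KO minus that in WT cells. In origin recognition the values were 0.192 for Orc1 and 0.187 for Orc4. In helicase loading they were −0.398 for Cdc6 and −0.534 for Gmnn. Among MCM subunits they were −0.204 for Mcm3, −0.241 for Mcm6 and −0.409 for Mcm7. In helicase activation they were −0.45 for Mcm10, −0.229 for Gins1, −0.442 for Gins2, −0.248 for Gins3 and −0.21 for Gins4. For the clamp and its loader they were −0.437 for Pcna, −0.421 for Rfc3, 0.43 for Rfc4 and −0.427 for Rfc5. Polymerase and primase genes had −0.242 for Pola2, −0.18 for Prim2, −0.208 for Pold2, −0.552 for Pold3 and −0.266 for Pole2. Rpa2 had −0.495, Rpa3 −0.316 and Fen1 −0.603. In nucleotide supply the values were −0.15 for Rrm1, −0.398 for Rrm2 and −0.497 for Tk1. Of the 27, 15 were called with the same sign in replicates 1 and 2 alone and in replicates 3 and 4 alone. The share of interaction calls over all genes that repeat in this way was not counted.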

How the results depend on the processing

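Pausing in KO cells gave 4 to 5 members higher and 36 to 38 lower under every alternative run. In WT cells the 7 members that rose became 3 with the groups of the contrast only, 3 with protein-coding genes only, 4 with replicates 3 and 4 alone, and 3 to 7 when 1 library was left out (3 without WT paused replicate 1, 4 without WT normal replicate 3). The 3 positive interactions became 5 with DESeq2, 5 with RLE scaling, 6 with protein-coding genes only, 5 with a term for the pairs of replicates, and 3 to 5 when 1 library was left out (5 without KO paused replicate 2, WT normal replicate 2 or WT normal replicate 3). The 24 negative ones became 16 to 26 when 1 library was left out. In normal culture the 8 members lower in KO cells became 14 with protein-coding genes only and 7 to 11 when 1 library was left out. Called values changed sign for Pola1 on pausing in WT cells with replicates 1 and 2 alone (−0.026, edgeR adjusted p = 0.65), for Tyms in KO against WT in normal culture with length-scaled TPM counts (0.13, adjusted p = 0.013) and for Gins2 in paused cells with the same counts (−0.0265, adjusted p = 0.81). The cause was not tested. With the replicate block, members higher and lower were 7 and 29 for pausing in WT, 4 and 37 in KO, 4 and 25 for the interaction, 25 and 10 for KO against WT in normal culture and 10 and 17 when paused. An interaction with the groups of the contrast only was not run, since it needs all 4 groups.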
